A study of Mus musculus with 39 samples.

Results

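The genes described here are 36 endothelial and angiogenic genes, measured by RNA sequencing in the interscapular brown fat of mice. Members were the entries of the deposited table whose symbol stood in a list of 36 names and whose mean over the 16 libraries was at least 10 normalised counts. All 36 names were found and all 36 passed that minimum, against 13176 of 24116 entries in the whole table. They comprised 30 endothelial markers (proteins made by the cells that line vessels) and 6 secreted growth factors. The mice were males of the C57BL/6J strain and all carried floxed Bcl6, controls included. The 16 libraries fell into 4 groups of 4 libraries each: UCP1Cre-positive mice housed at 30 °C, Cre-negative controls at 30 °C, UCP1Cre-positive mice at 22 °C and Cre-negative controls at 22 °C. Cre under the Ucp1 promoter acts in brown adipocytes, not by design in endothelial cells, and the libraries were made from whole tissue. Neither the age of the animals nor whether each library is a different animal is given in the labels, so p-values here measure the spread between these libraries, which may be technical.

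The gene-level value of Bcl6, the targeted gene, did not fall with the Cre label. It averaged 4466 ± 853 normalised counts in Cre-labelled libraries against 1847 ± 608 in controls at 30 °C, and 3305 ± 514 in Cre-labelled libraries against 1079 ± 510 in controls at 22 °C (SD, n = 4 each). The Cre-labelled libraries were thus 2.50-fold higher at 30 °C (limma adjusted p = 0.00438) and 3.25-fold higher at 22 °C (limma adjusted p = 8.25e-04). The table does not say whether the counted reads lie inside the deleted exons, and the groups are called Cre-labelled and control below. Normalised totals per library ran between 8867615 and 9479495 in the Cre-labelled group at 30 °C, between 9387313 and 9975035 in the controls at 30 °C, between 10122739 and 12867466 in the Cre-labelled group at 22 °C and between 12064137 and 13516936 in the controls at 22 °C. Control library 1 at 22 °C had 14311 entries above 0, Cre-labelled library 2 at 22 °C had 15226, and the other 14 had between 15611 and 16849. Ucp1, the defining transcript of brown adipocytes, was above 0 in every library, with 3761 normalised counts in the lowest and 119740 in the highest.

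Brown fat burns fuel to make heat, and a dense bed of capillaries brings it oxygen, fatty acids and glucose and carries the heat away. Endothelial cells of that bed hold together through junction proteins such as VE-cadherin (Cdh5), PECAM-1 (Pecam1) and claudin-5 (Cldn5), and sense growth factors through the VEGF receptors (Kdr, Flt1, Flt4) and the Tie receptors (Tek, Tie1). Adipocytes are a source of VEGF-A, the main signal for capillary growth, which is known to rise when brown fat is activated by cold; angiopoietin-1 (Angpt1) activates Tek and steadies vessels, whereas angiopoietin-2 (Angpt2), made by endothelial cells themselves, can oppose it.

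Promoter sequences were available for 20 of the 36 members, as 25 start sites from RefSeq (GRCm38.p6, the assembly also called mm10). They are shown because ERG and other ETS factors are known to act through the letters AGGAAG in many endothelial genes, and BCL6 through a site whose core is TTCCTNGAA. Each promoter below gives the 250 bases before a start site, 5′ to 3′ on the gene's strand, with AGGAAG or its reverse complement in capitals. Shown are 3 of the markers that hold it and rose in a comparison of Cre labels, then Cldn5, the marker with the largest difference, and Vegfa, the growth factor that fell most, neither of which holds it here.
Egfl7, chr2:26580833-26581082, plus strand: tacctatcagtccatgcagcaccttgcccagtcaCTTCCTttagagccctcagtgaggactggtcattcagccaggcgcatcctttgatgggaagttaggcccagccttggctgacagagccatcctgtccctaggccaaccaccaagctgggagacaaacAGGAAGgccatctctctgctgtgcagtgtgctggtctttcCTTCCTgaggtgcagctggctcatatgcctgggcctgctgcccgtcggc
Notch4, chr17:34564045-34564294, plus strand: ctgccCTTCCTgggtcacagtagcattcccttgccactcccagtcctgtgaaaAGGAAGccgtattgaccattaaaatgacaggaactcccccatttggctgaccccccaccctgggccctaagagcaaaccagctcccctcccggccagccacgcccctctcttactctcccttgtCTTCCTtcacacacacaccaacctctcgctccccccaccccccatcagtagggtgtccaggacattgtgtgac
Tie1, chr4:118489850-118490099, minus strand: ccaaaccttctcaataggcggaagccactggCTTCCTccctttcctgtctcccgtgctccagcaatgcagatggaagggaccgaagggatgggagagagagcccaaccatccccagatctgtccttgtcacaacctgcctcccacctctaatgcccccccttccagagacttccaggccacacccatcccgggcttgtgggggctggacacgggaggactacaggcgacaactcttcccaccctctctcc
Cldn5, chr16:18776597-18776846, plus strand: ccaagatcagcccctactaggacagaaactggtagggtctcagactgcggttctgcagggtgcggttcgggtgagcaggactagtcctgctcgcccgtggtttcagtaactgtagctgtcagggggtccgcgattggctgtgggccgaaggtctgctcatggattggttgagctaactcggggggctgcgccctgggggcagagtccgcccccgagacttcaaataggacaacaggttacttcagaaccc
Vegfa, chr17:46032378-46032627, minus strand: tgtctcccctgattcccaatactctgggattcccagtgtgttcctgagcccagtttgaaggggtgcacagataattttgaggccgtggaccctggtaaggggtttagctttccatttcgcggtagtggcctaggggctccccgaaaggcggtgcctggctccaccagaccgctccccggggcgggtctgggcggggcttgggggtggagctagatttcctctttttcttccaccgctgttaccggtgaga
In these windows Egfl7 has matches that begin at −216, −89 and −49 from its start, Notch4 at −245, −197 and −73, and Tie1 at −219. Over both strands, AGGAAG occurred in 11 of the 25 member promoters (44%), against 29.5% of all 32851 promoters of the same length. The matching promoters belonged to Apln, Egfl7, Emcn, Eng, Erg, Flt1, Notch4, Nrp1, Robo4 and Tie1. Of these, Apln, Emcn, Eng, Flt1 and Nrp1 were not called by limma for the Cre label at either temperature. Egfl7 has further start sites, whose windows are not printed. That at chr2:26583615-26583864 has 1 match, at −80, and that at chr2:26586386-26586635 has 0. The BCL6 core TTCCTNGAA occurred in 0 of the 25 and in 1.31% of all promoters; where a C precedes it, it overlaps the other motif by 5 letters. The median GC content of the member promoters was 59.6%, against 52.4% over all.

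Most members shared the group with the lowest mean and the group with the highest mean. The lowest group mean fell in the controls at 22 °C for 29 of the 36 members (25 of the 30 markers), and the highest in the Cre-labelled libraries at 30 °C for 26 members (24 markers). Such counts were not made over all genes, of which 45.5% were called by limma for temperature in controls. A full order of the 4 groups was not counted. The mean deviation of the 30 markers from their own averages, on the log2(value + 1) scale, was 0.33 ± 0.15 in Cre-labelled libraries against 0.09 ± 0.13 in controls at 30 °C, and 0.02 ± 0.23 in Cre-labelled libraries against −0.43 ± 0.17 in controls at 22 °C (SD, n = 4 each). The same mean over the 6 growth factors was 0.20 ± 0.05 in Cre-labelled libraries against 0.24 ± 0.08 in controls at 30 °C, and −0.04 ± 0.14 in Cre-labelled libraries against −0.40 ± 0.16 in controls at 22 °C. Within each label both means were higher at 30 °C than at 22 °C. Whether markers and factors differed from each other in their response to the Cre label was not tested.

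**Figure D1:**
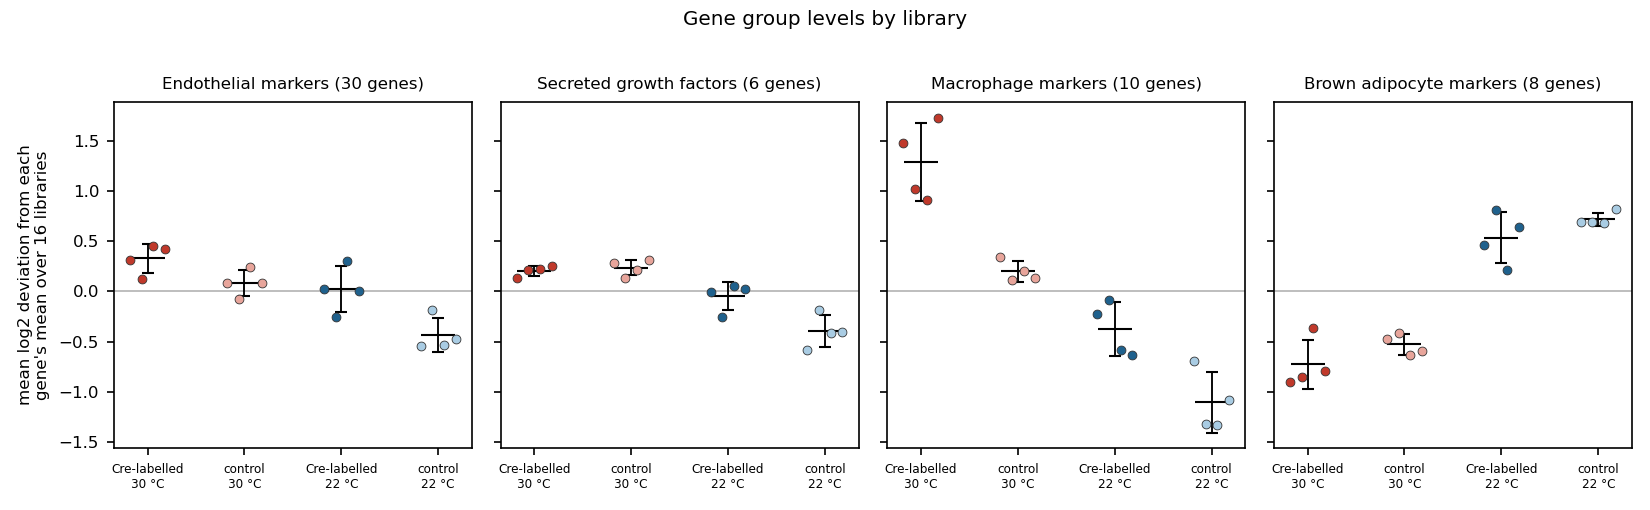
Each point is 1 library's mean log2 deviation over the genes of a list, with the group mean and SD as bars, for Cre-labelled and control libraries at 30 and 22 °C. Endothelial markers were lowest in the controls at 22 °C (mean −0.43) and highest in the Cre-labelled libraries at 30 °C (mean 0.33), macrophage markers followed the same order over a wider range, and brown adipocyte markers were lower at 30 °C.

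Markers of other cells in the tissue moved with these groups as well. The summed level of 10 macrophage markers ran between 5142 and 13257 normalised counts in Cre-labelled libraries against 2983 to 3701 in controls at 30 °C, and between 1842 and 2631 in Cre-labelled libraries against 1035 to 1835 in controls at 22 °C. The lymphocyte, progenitor and mural lists followed the same order of group means as the endothelial markers. The mean log2 deviation of 7 lymphocyte markers was 0.74 in Cre-labelled libraries against 0.16 in controls at 30 °C, and −0.03 in Cre-labelled libraries against −0.87 in controls at 22 °C. For 6 progenitor markers it was 0.49 in Cre-labelled libraries against 0.16 in controls at 30 °C, and −0.10 in Cre-labelled libraries against −0.55 in controls at 22 °C. For 10 mural cell markers it was 0.16 in Cre-labelled libraries against 0.0022 in controls at 30 °C. At 22 °C it was −0.0087 in Cre-labelled libraries against −0.15 in controls for those mural markers. The summed level of 8 brown adipocyte markers ran between 109852 and 138921 in Cre-labelled libraries against 113078 to 135680 in controls at 30 °C, and between 189908 and 298491 in Cre-labelled libraries against 231106 to 357193 in controls at 22 °C. Within that sum, 3 of the 8 were called lower with the Cre label at 30 °C. They were Ucp1 (log2 difference −1.68, limma adjusted p = 2.80e-04), Prdm16 (−0.68, limma adjusted p = 0.0336) and Cidea (−0.61, limma adjusted p = 0.0394). Another 4 of the 8 had positive differences there, up to 1.36, of which 0 were called higher (1 at an unadjusted p below 0.05). Ucp1 lay between 3761 and 6829 normalised counts in Cre-labelled libraries against 13596 to 18219 in controls at 30 °C, and it was the 1 marker called lower at 22 °C. Of the 10 skeletal muscle markers, none was called by limma for the Cre label at 30 °C or at 22 °C (0 and 1 at an unadjusted p below 0.05), but their sum ran between 67.2 and 23219 within the Cre-labelled group at 30 °C alone. Between 30 and 22 °C in controls, all 10 muscle markers stood apart upwards, with a median log2 difference of 4.08, and 4 were called higher (8 at an unadjusted p below 0.05). With the muscle level as a covariate, 19 members were higher at 30 °C in controls and 0 lower, against 18 and 0 without it. Of the 45 gene calls in the comparisons below, 6 were lost with that covariate, all of them for the Cre label. They were Pecam1 and Angpt1 at 30 °C, and Cdh5, Flt4, Erg and Angpt2 at 22 °C. None of these markers was at 0 in every library, and the part of the other cell types in the differences below was not tested. In whole tissue, fewer cells of a type and less RNA per cell cannot be told apart.

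Each comparison was tested with limma on log2(normalised count + 1) over all 13176 genes, and a gene is called when its Benjamini-Hochberg adjusted p is below 0.05. Between Cre-labelled and control libraries at 30 °C, 5 of the 36 members were higher and 2 were lower. Over all genes 5.65% were called higher and 6.85% lower, 12.5% in all. The 5 higher were all markers, none of which was called lower, and the 2 lower were growth factors. The median log2 difference was 0.22 over the 30 markers, −0.02 over the 6 factors and 0.01 over all genes. Between Cre-labelled and control libraries at 22 °C, 11 members were higher (10 markers and 1 factor) and 0 were lower, also 0 at an unadjusted p below 0.05. Over all genes 5.51% were called higher and 4.69% lower, 10.2% in all. The median log2 difference was 0.49 over the markers, 0.38 over the factors and −0.0042 over all genes. Both counts depended on which libraries were kept. With 1 library left out they ran between 1 and 7 higher and between 0 and 3 lower at 30 °C. At 22 °C they ran between 3 and 18 higher. Over the same refits the median log2 difference of the 36 members stayed between 0.15 and 0.27 at 30 °C. At 22 °C that median stayed between 0.36 and 0.55. Without the 2 sparsest libraries, both at 22 °C, 8 members were higher at 30 °C and 19 at 22 °C.

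More members were called for temperature in controls than in any other comparison, and the same held over all genes tested. Between 30 and 22 °C in controls, 18 members were higher (16 markers and 2 factors) and 0 lower, also 0 at an unadjusted p below 0.05, where 22.9% of all genes were called higher and 22.7% lower, 45.5% together. The median log2 difference was 0.61 over the members and 0.04 over all genes. Between 30 and 22 °C in Cre-labelled libraries, 8 members were higher (6 markers and 2 factors) and 1 factor was lower, where 15% of all genes were called higher and 17.7% lower, 32.7% together. The median log2 difference there was 0.26 over the members and 0.02 over all genes. Each group enters more than one of these comparisons, so they are not independent of each other.

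The libraries of 2 groups can also stand apart, with every value of one above every value of the other. With the Cre label at 30 °C this held for 9 members upwards and 4 downwards, against 10.5% and 12.4% of all genes. At 22 °C 9 members did so upwards and 0 downwards, against 6.38% and 6.06% of all genes. In the controls 15 members stood apart upwards at 30 °C and 0 downwards, against 19.9% and 21.3% of all genes, and in Cre-labelled libraries 8 and 1 did, against 16.2% and 18.3%. The 9 upwards with the Cre label at 30 °C were all markers: Pecam1, Esam, Cldn5, Robo4, Egfl7, Car4, Tek, Tie1 and Eng. The 4 downwards there were Angpt1, Vegfa, Vegfb and Nrp1, so 3 of the 6 growth factors and 1 of the 30 markers.

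**Figure D2:**
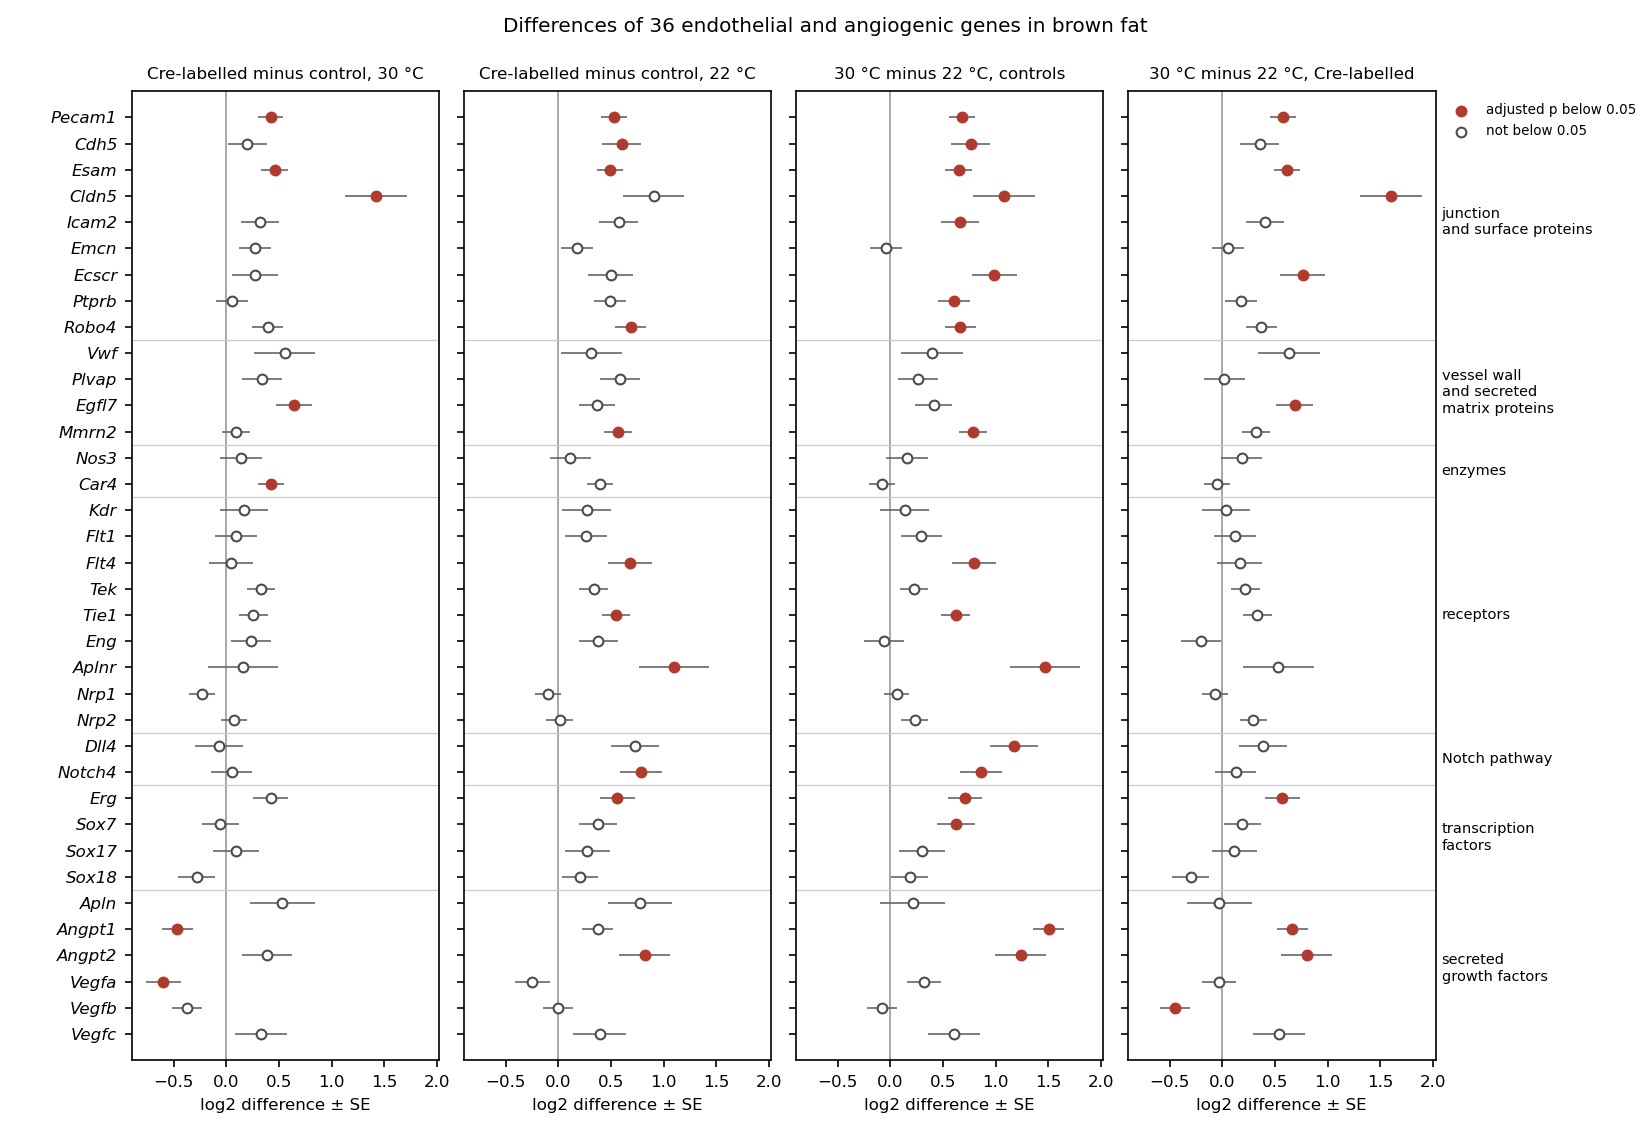
Log2 differences of the 36 members with their standard errors, in rows by role and in columns by comparison, with filled points where the limma adjusted p was below 0.05. Nearly all points of the markers lie at or right of 0, while Angpt1 and Vegfa lie left of 0 between Cre labels at 30 °C.

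Of the 9 junction and surface proteins, 3 were called higher with the Cre label at 30 °C and 4 at 22 °C, 8 were higher at 30 °C in controls and 4 in Cre-labelled libraries, and none was called lower anywhere. Cldn5, which seals tight junctions, had the largest difference of any member. Cldn5 had 1366, 957, 2133 and 1650.3 normalised counts in the 4 Cre-labelled libraries at 30 °C, against 331, 430.0, 713 and 868 in the 4 controls. Its 22 °C values were 410.1, 577, 523 and 439.9 in Cre-labelled libraries, against 396, 228, 265 and 184 in controls. At 30 °C every Cre-labelled library stood above every control, and both warm groups spread widely. Cldn5 was 2.69-fold higher in the Cre-labelled libraries at 30 °C (log2 difference 1.43 ± 0.29 SE, limma adjusted p = 0.00415), and this call held under all 27 alternative analyses. At 22 °C its difference of 0.90 missed the threshold (limma adjusted p = 0.0598). Temperature raised it 3.03-fold in Cre-labelled libraries (limma adjusted p = 6.37e-04) and 2.11-fold in controls (limma adjusted p = 0.00710).

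Pecam1, an adhesion protein used to mark all endothelium, was the steadiest of the members, with a within-group SD of 0.17 on the log2 scale against a median of 0.28 over the members. At 30 °C the values of Pecam1 were 5133, 4419.8, 4579 and 4884 normalised counts in Cre-labelled libraries and 3618, 3147, 3819 and 3642 in controls. The 22 °C values were 3255, 2694, 3888 and 3035 in Cre-labelled libraries and 2068, 2678, 1992 and 2179 in controls. The Cre-labelled and control libraries did not overlap at either temperature, and the 30 °C groups lay above the 22 °C group of the same label. Pecam1 was 1.34-fold higher with the Cre label at 30 °C (log2 difference 0.42 ± 0.12 SE, limma adjusted p = 0.0305) and 1.44-fold higher at 22 °C (0.53 ± 0.12 SE, limma adjusted p = 0.0107, or 0.0758 with the 22 °C groups fitted alone). With warmth it was 1.60-fold higher in controls (limma adjusted p = 3.27e-04) and 1.49-fold higher in Cre-labelled libraries (limma adjusted p = 0.00179). The call for the Cre label at 30 °C was lost in 8 of 27 alternatives, with a highest limma adjusted p of 0.0927. It was lost with the replicate block and with the muscle covariate (limma adjusted p = 0.0508). Leaving out Cre-labelled library 1, 3 or 4 or control library 1, 2 or 4 at 30 °C also lost it.

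Esam, an adhesion molecule of endothelial tight junctions, changed in the same 4 comparisons. Normalised counts of Esam at 30 °C were 2547, 2023, 2567 and 2882 in Cre-labelled libraries and 1768, 1913, 2015 and 1569.6 in controls. Those at 22 °C were 1753, 1348, 1928 and 1519.8 in Cre-labelled libraries and 1169, 1195, 1066 and 1192 in controls. Its 22 °C controls lay within a narrow band below every other library. Esam was 1.37-fold higher with the Cre label at 30 °C (limma adjusted p = 0.0242) and 1.40-fold higher at 22 °C (limma adjusted p = 0.0208). It was 1.57-fold higher at 30 °C in controls (limma adjusted p = 6.64e-04) and 1.53-fold higher in Cre-labelled libraries (limma adjusted p = 0.00146). Both calls for the Cre label were lost in some alternatives. At 30 °C the call was lost without Cre-labelled library 1, 3 or 4 or control library 1 or 4 (highest limma adjusted p 0.0926). At 22 °C it was lost without Cre-labelled library 1 or 3, without control library 3, or with those 8 libraries fitted alone. The highest limma adjusted p there was 0.0770 over all alternatives.

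Robo4, a guidance receptor on the endothelial surface, had the smallest p for the Cre label at 22 °C. Robo4 measured 1525, 1418, 1913 and 1579.7 normalised counts in Cre-labelled libraries and 1136, 1261, 1341 and 1144 in controls at 30 °C. Values at 22 °C were 1367, 939, 1427 and 1274 with the Cre label and 579.9, 891, 805 and 835 without it. Cre-labelled libraries stood above controls at both temperatures without overlap. At 22 °C Robo4 was 1.61-fold higher with the Cre label (log2 difference 0.69 ± 0.15 SE, limma adjusted p = 0.00724, or 0.0558 with the 22 °C groups fitted alone), whereas at 30 °C its difference of 0.39 missed the threshold (limma adjusted p = 0.0968). In controls it was 1.59-fold higher at 30 °C (limma adjusted p = 0.00192).

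Cdh5, the cadherin of endothelial adherens junctions, rose at 22 °C with overlapping groups. Cdh5 had 7724, 6697, 7703 and 8014 normalised counts in the 4 Cre-labelled libraries at 30 °C, against 6849, 5622, 7257 and 6596 in the 4 controls. Its 22 °C values were 6241, 3883, 7952 and 6168 in Cre-labelled libraries, against 3094, 5182, 3629 and 3829 in controls. Cre-labelled library 2 at 22 °C lay among the controls. Cdh5 was 1.52-fold higher with the Cre label at 22 °C (limma adjusted p = 0.0470), a call lost in 20 of 27 alternatives, and 1.70-fold higher at 30 °C in controls (limma adjusted p = 0.00338). Ecscr, a small surface protein of endothelial cells, was called for temperature in both labels. At 30 °C the values of Ecscr were 436, 330.1, 310.0 and 442 normalised counts in Cre-labelled libraries and 363, 255, 377 and 267 in controls. The 22 °C values were 201, 226, 301 and 173 in Cre-labelled libraries and 229.9, 163, 141 and 112 in controls. The warm groups stood above the cool group of the same label without overlap. Ecscr was 1.70-fold higher at 30 °C in Cre-labelled libraries (limma adjusted p = 0.0123) and 1.98-fold higher in controls (limma adjusted p = 0.00165). Ptprb, a phosphatase that restrains Tie receptors, and Icam2, an adhesion molecule for leukocytes, were higher at 30 °C in controls (1.52-fold, limma adjusted p = 0.00407, and 1.58-fold, limma adjusted p = 0.00764), whereas Emcn, a surface mucin of capillaries and veins, was called in no comparison and averaged between 568 and 696 normalised counts in the 4 groups.

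**Figure D3:**
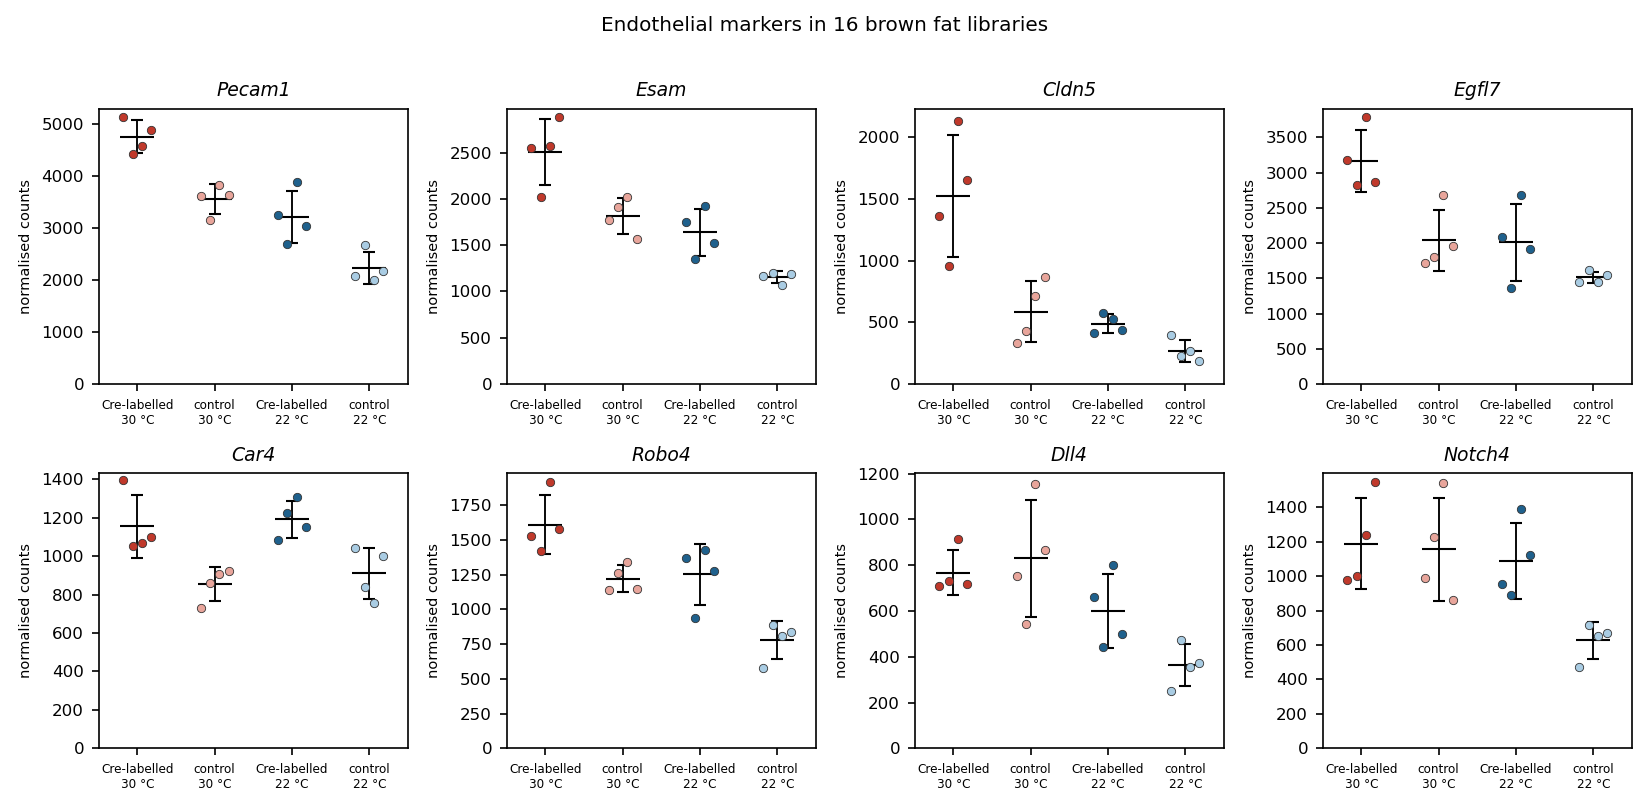
Normalised counts of 8 markers in each library, with group means and SD (n = 4), on axes that start at 0. Cldn5, Egfl7, Esam and Pecam1 were highest in the Cre-labelled libraries at 30 °C, Car4 separated by Cre label, and Dll4 and Notch4 were lowest in the controls at 22 °C.

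Among the 4 vessel wall and matrix proteins, Egfl7 and Mmrn2 carried the calls. Egfl7, a secreted protein laid down around growing vessels, had one of the larger differences at 30 °C. Normalised counts of Egfl7 at 30 °C were 3182, 2824, 3785 and 2861 in Cre-labelled libraries and 1720.1, 1809, 2676 and 1959.7 in controls. Those at 22 °C were 2085, 1356, 2675 and 1918 in Cre-labelled libraries and 1444, 1615, 1453 and 1546 in controls. At 30 °C every Cre-labelled library lay above every control. Egfl7 was 1.56-fold higher with the Cre label at 30 °C (log2 difference 0.64 ± 0.17 SE, limma adjusted p = 0.0220), a call lost without Cre-labelled library 1 or 3 or control library 1, 2 or 4 (highest adjusted p 0.0742), and between temperatures it was 1.61-fold higher at 30 °C in Cre-labelled libraries (limma adjusted p = 0.00629). Mmrn2, a matrix protein that binds VEGF-A, was instead low in one group. Mmrn2 measured 1257, 1226, 1355 and 1349 normalised counts in Cre-labelled libraries and 1178, 1035, 1359.6 and 1309 in controls at 30 °C. Values at 22 °C were 1081, 859, 1281 and 990.0 with the Cre label and 564, 821, 723 and 734 without it. The 22 °C controls lay below every other library. It was 1.48-fold higher with the Cre label at 22 °C (limma adjusted p = 0.0124, or 0.0751 with the 22 °C groups fitted alone) and 1.72-fold higher at 30 °C in controls (limma adjusted p = 2.18e-04), against a log2 difference of 0.09 for the Cre label at 30 °C. Vwf, the clotting factor of venous endothelium, and Plvap, which forms the diaphragms of fenestrae and caveolae, were called in no comparison.

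The 2 enzymes did not follow temperature. Car4, a carbonic anhydrase on the capillary surface, tracked the Cre label. Car4 had 1399, 1052, 1071 and 1098 normalised counts in the 4 Cre-labelled libraries at 30 °C, against 732, 859, 908 and 925 in the 4 controls. Its 22 °C values were 1084, 1227, 1308 and 1153 in Cre-labelled libraries, against 1042, 842, 756 and 1002 in controls. Cre-labelled libraries stood above controls at both temperatures without overlap. Car4 was 1.35-fold higher with the Cre label at 30 °C (limma adjusted p = 0.0311) and 1.32-fold higher at 22 °C, where it just missed the threshold (limma adjusted p = 0.0505). The 30 °C call was lost without Cre-labelled library 1 or 4 or control library 1 or 2 (highest adjusted p over all alternatives 0.115). Its log2 differences with temperature were −0.08 in controls and −0.05 in Cre-labelled libraries. Nos3, the endothelial nitric oxide synthase, differed by 0.18 or less on the log2 scale in all 4 comparisons and was called in none.

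None of the 9 receptors was called by limma for the Cre label at 30 °C (1 higher at an unadjusted p below 0.05) or for temperature in Cre-labelled libraries (2 higher at an unadjusted p below 0.05). Aplnr, Tie1 and Flt4 were called higher with the Cre label at 22 °C and higher at 30 °C in controls, comparisons that share the 22 °C controls. Aplnr, the receptor for apelin, had the widest range. At 30 °C the values of Aplnr were 1477, 1389.5, 1551 and 1183 normalised counts in Cre-labelled libraries and 1667, 562, 1744 and 1475 in controls. The 22 °C values were 913, 742, 1467 and 864 in Cre-labelled libraries and 727, 548, 266 and 383 in controls. The labels stood apart at 22 °C by a small margin, and control library 2 at 30 °C lay far below its group. Aplnr was 2.14-fold higher with the Cre label at 22 °C (limma adjusted p = 0.0454, lost in 18 of 27 alternatives) and 2.77-fold higher at 30 °C in controls (limma adjusted p = 0.00213). Tie1, an endothelial receptor that modulates Tek, was less variable. Normalised counts of Tie1 at 30 °C were 3885, 3869, 3879.6 and 4105 in Cre-labelled libraries and 3327, 3071, 3423 and 3361 in controls. Those at 22 °C were 3252, 2334, 4021 and 3139 in Cre-labelled libraries and 1792, 2201, 2071 and 2568 in controls. The 22 °C controls were the lowest group, though Cre-labelled library 2 lay within their range. Tie1 was 1.46-fold higher with the Cre label at 22 °C (limma adjusted p = 0.0182, lost without Cre-labelled library 1 or 3 or control library 3, or with those 8 libraries fitted alone) and 1.54-fold higher at 30 °C in controls (limma adjusted p = 0.00174). Flt4 is the VEGF-C receptor. Flt4 measured 341, 318, 439 and 308 normalised counts in Cre-labelled libraries and 323, 292, 381 and 357 in controls at 30 °C. Values at 22 °C were 329, 207, 395 and 347 with the Cre label and 129, 259.8, 218 and 193 without it. Control library 1 at 22 °C, the sparsest, was the lowest. Flt4 was 1.60-fold higher with the Cre label at 22 °C (limma adjusted p = 0.0488, lost in 19 of 27 alternatives) and 1.73-fold higher at 30 °C in controls (limma adjusted p = 0.00594).

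The other receptors gave no calls. Kdr, the main signalling receptor for VEGF-A, averaged 4728 ± 789.6 normalised counts in Cre-labelled libraries against 4191 ± 486 in controls at 30 °C, and 4703 ± 1255 in Cre-labelled libraries against 3989.6 ± 1510.1 in controls at 22 °C (SD, n = 4 each). The SDs of the groups exceeded their differences at 22 °C. Its log2 difference with temperature was 0.14 in controls (95% interval −0.35 to 0.62) and 0.03 in Cre-labelled libraries (95% interval −0.45 to 0.52). Flt1, a decoy receptor for VEGF, Tek, Eng, a co-receptor of the TGF-beta family, and the neuropilins Nrp1 and Nrp2, which bind VEGF and semaphorins and are also made by other cells, ranged between −0.23 and 0.38 over the 4 comparisons. Nrp1 was the receptor with a lower mean in Cre-labelled libraries at both temperatures (log2 differences −0.23 at 30 °C and −0.10 at 22 °C, neither called), and at 30 °C its libraries did not overlap. At 30 °C the Cre-labelled libraries of Tek, Tie1 and Eng stood above every control (log2 differences 0.33, 0.26 and 0.23, none called).

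Both genes of the Notch pathway, by which arterial and tip cells signal to their neighbours, were lowest in the controls at 22 °C. Dll4 is the ligand. Dll4 had 709, 731, 913 and 718 normalised counts in the 4 Cre-labelled libraries at 30 °C, against 754, 544, 1157 and 867 in the 4 controls. Its 22 °C values were 661, 444, 802 and 498 in Cre-labelled libraries, against 249, 474, 354 and 374 in controls. Control library 1 at 22 °C was the lowest of all 16. Dll4 was 2.26-fold higher at 30 °C in controls (limma adjusted p = 6.31e-04), whereas the Cre label at 22 °C gave 1.65-fold (limma adjusted p = 0.0524). Notch4 is an endothelial receptor of that ligand family. At 30 °C the values of Notch4 were 977, 998, 1237 and 1545 normalised counts in Cre-labelled libraries and 992, 1227, 1541 and 862 in controls. The 22 °C values were 953, 888, 1387 and 1119.9 in Cre-labelled libraries and 473, 717, 651 and 673 in controls. At 22 °C every Cre-labelled library stood above every control, and at 30 °C the labels were mixed. Notch4 was 1.72-fold higher with the Cre label at 22 °C (log2 difference 0.79 ± 0.20 SE, limma adjusted p = 0.0180, or 0.0688 without Cre-labelled library 3) and 1.81-fold higher at 30 °C in controls (limma adjusted p = 0.00222). At 30 °C its log2 difference with the Cre label was 0.05.

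Of the 4 transcription factors, Erg, the ETS factor that maintains endothelial identity, was called in 3 comparisons. Normalised counts of Erg at 30 °C were 892, 765, 1036 and 881 in Cre-labelled libraries and 679, 582, 823 and 597 in controls. Those at 22 °C were 629, 428, 759 and 625 in Cre-labelled libraries and 345, 494, 382 and 415 in controls. The warm groups lay above the cool group of the same label, and at 22 °C 1 Cre-labelled library lay within the control range. Erg was 1.47-fold higher with the Cre label at 22 °C (limma adjusted p = 0.0397, lost in 13 of 27 alternatives), 1.64-fold higher at 30 °C in controls (limma adjusted p = 0.00247) and 1.48-fold higher at 30 °C in Cre-labelled libraries (limma adjusted p = 0.0137). At 30 °C its log2 difference with the Cre label was 0.42 (limma adjusted p = 0.111). The SoxF factors Sox7, Sox17 and Sox18, which act in vessel and lymphatic development, gave 1 call: Sox7 was 1.54-fold higher at 30 °C in controls (limma adjusted p = 0.00946). In Cre-labelled libraries at 30 °C Sox18 had negative differences, −0.28 against the 30 °C controls and −0.30 against the 22 °C Cre-labelled libraries, neither called.

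The 6 secreted growth factors did not move as one. Vegfa, the main capillary growth signal, was lower with the Cre label at 30 °C. Vegfa measured 5287, 7316, 6229 and 6604 normalised counts in Cre-labelled libraries and 9631, 10131, 8271 and 10391 in controls at 30 °C. Values at 22 °C were 6496, 4776, 6884 and 8140.3 with the Cre label and 6177, 6985, 9290.3 and 8645 without it. At 30 °C every Cre-labelled library lay below every control, while at 22 °C the groups overlapped. Vegfa was 1.52-fold lower with the Cre label at 30 °C (log2 difference −0.60 ± 0.17 SE, limma adjusted p = 0.0239) and differed by −0.25 at 22 °C (limma adjusted p = 0.372). The 30 °C call was lost under quantile normalisation (log2 difference −0.48, limma adjusted p = 0.112) and without Cre-labelled library 1 or 3 or control library 1, 2 or 4. Temperature gave a log2 difference of 0.32 in controls (limma adjusted p = 0.124) and −0.03 in Cre-labelled libraries (limma adjusted p = 0.905).

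Angpt1, the Tek ligand made by perivascular and other stromal cells, had the smallest p of any member with temperature. Angpt1 had 525, 598, 511 and 593 normalised counts in the 4 Cre-labelled libraries at 30 °C, against 714, 751, 644 and 1005 in the 4 controls. Its 22 °C values were 325, 291, 354 and 447 in Cre-labelled libraries, against 288, 249, 246 and 301 in controls. The 4 groups stood in the order of 30 °C controls, 30 °C Cre-labelled, 22 °C Cre-labelled and 22 °C controls from high to low, with overlap only at 22 °C. In controls Angpt1 was 2.84-fold higher at 30 °C (limma adjusted p = 1.48e-06; 1.51 on the log2 scale with an SE of 0.15) and 1.59-fold higher in Cre-labelled libraries (limma adjusted p = 0.00233). With the Cre label it was 1.38-fold lower at 30 °C (log2 difference −0.47 ± 0.15 SE, limma adjusted p = 0.0439, lost in 13 of 27 alternatives with a highest adjusted p of 0.165) and had a difference of 0.37 at 22 °C (limma adjusted p = 0.113). Angpt2 is the context-dependent Tek ligand. At 30 °C the values of Angpt2 were 88.1, 103, 89.6 and 82.3 normalised counts in Cre-labelled libraries and 86.0, 56.8, 73.4 and 63.5 in controls. The 22 °C values were 61.4, 42.3, 61.1 and 44.2 in Cre-labelled libraries and 15.6, 37.5, 33.2 and 34.6 in controls. Its 3 highest libraries were Cre-labelled ones at 30 °C, and at 22 °C the labels did not overlap. Angpt2 was 1.77-fold higher with the Cre label at 22 °C (limma adjusted p = 0.0391, lost in 12 of 27 alternatives), 2.36-fold higher at 30 °C in controls (limma adjusted p = 6.57e-04) and 1.74-fold higher at 30 °C in Cre-labelled libraries (limma adjusted p = 0.0171, lost under quantile normalisation with 0.0663 and without Cre-labelled library 2 at 22 °C with 0.0530).

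Vegfb, a VEGF family member abundant in oxidative tissues, was low in the Cre-labelled libraries at 30 °C. Normalised counts of Vegfb at 30 °C were 1566, 1758, 1963 and 1539 in Cre-labelled libraries and 2006, 2109.6, 2394 and 2311 in controls. Those at 22 °C were 2124, 2890.4, 2157 and 2188 in Cre-labelled libraries and 3172, 2092, 1997 and 2213 in controls. At 30 °C every Cre-labelled library lay below every control. Vegfb was 1.37-fold lower at 30 °C than at 22 °C in Cre-labelled libraries (log2 difference −0.45 ± 0.14 SE, limma adjusted p = 0.0229), a call lost under quantile normalisation (−0.26, limma adjusted p = 0.107) and without Cre-labelled library 1 or 4 at 30 °C or library 2 at 22 °C. With the Cre label at 30 °C its difference was −0.37 (limma adjusted p = 0.101), and in controls temperature gave −0.08. Vegfc is the ligand of Flt4 and the driver of lymphatic growth. Vegfc measured 97.1, 44.8, 71.9 and 76.1 normalised counts in Cre-labelled libraries and 58.7, 45.8, 43.7 and 80.4 in controls at 30 °C. Values at 22 °C were 54.4, 41.3, 54.5 and 42.4 with the Cre label and 45.5, 42.3, 29.7 and 30.0 without it. It was called in no comparison, with log2 differences between 0.33 and 0.60. Apln, the apelin peptide made by sprouting tip cells, was not called either. Apln had 142, 201, 188 and 233 normalised counts in the 4 Cre-labelled libraries at 30 °C, against 139.9, 125, 181 and 89.0 in the 4 controls. Its 22 °C values were 195, 145, 214 and 224 in Cre-labelled libraries, against 63.4, 236, 115 and 90.5 in controls. The labels overlapped at both temperatures, and control library 2 at 22 °C was the highest of the 16.

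**Figure D4:**
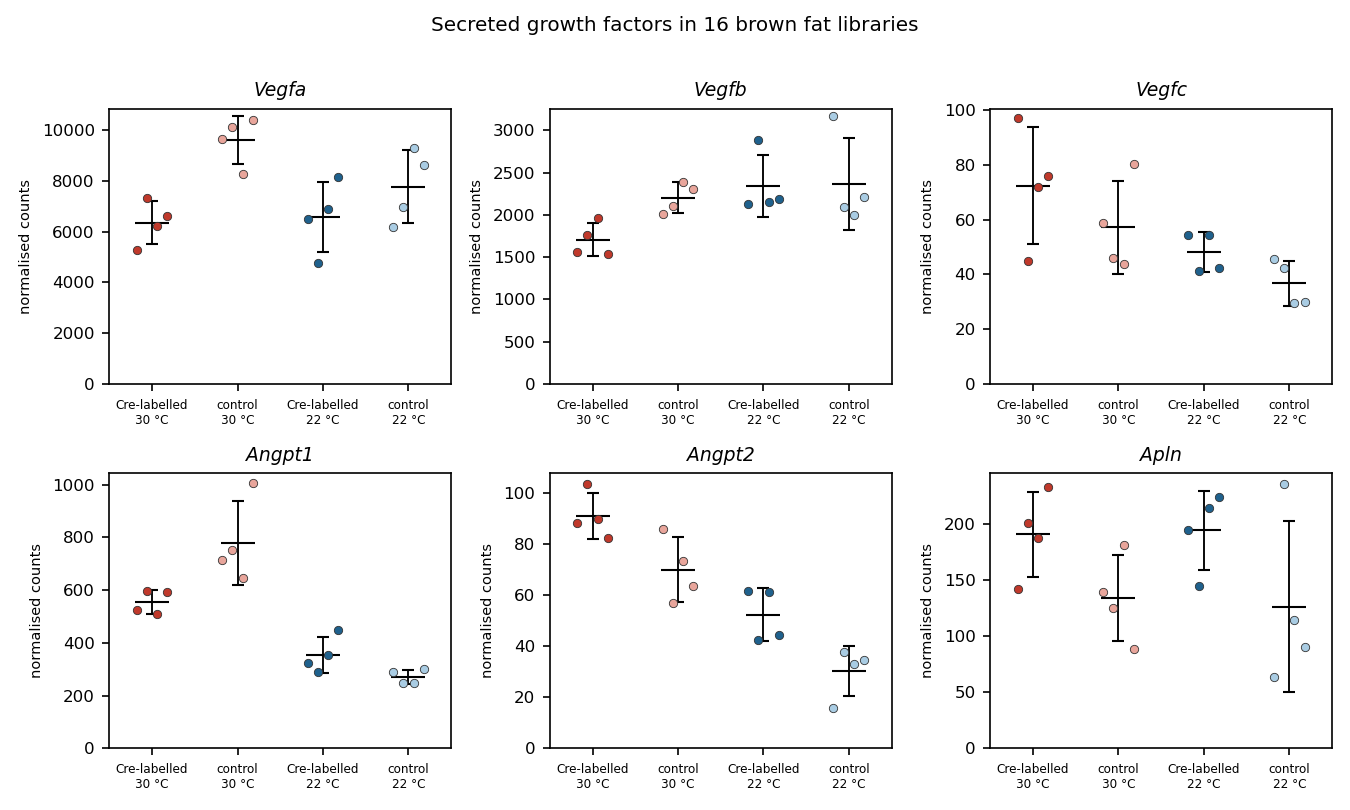
Normalised counts of the 6 secreted growth factors in each library, with group means and SD (n = 4), on axes that start at 0. Vegfa and Angpt1 were lower in Cre-labelled than in control libraries at 30 °C, Angpt1 and Angpt2 were higher at 30 °C than at 22 °C, and Apln and Vegfc overlapped throughout.

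Markers were set against growth factors within each library as the difference of their 2 mean log2 deviations. This gap was 0.18, −0.09, 0.23 and 0.17 in Cre-labelled libraries 1 to 4 at 30 °C, and −0.20, −0.21, 0.03 and −0.22 in control libraries 1 to 4 at 30 °C. In the cool the gap was 0.04, 0.0025, 0.25 and −0.02 in Cre-labelled libraries at 22 °C, against 0.03, −0.0013, −0.12 and −0.07 in controls. At 30 °C the gap was above 0 in 3 of 4 Cre-labelled libraries and below 0 in 3 of 4 controls, and the ranges overlapped. Group means were 0.12 ± 0.14 in Cre-labelled libraries against −0.15 ± 0.12 in controls at 30 °C, and 0.07 ± 0.12 in Cre-labelled libraries against −0.04 ± 0.07 in controls at 22 °C (SD, n = 4 each). Beside it, the factors split. Angpt2, Apln and Vegfc had positive differences with the Cre label at both temperatures, like most markers, whereas Vegfa was negative at both. Vegfb was −0.37 at 30 °C and −0.0043 at 22 °C, and Angpt1 changed sign, with −0.47 at 30 °C and 0.37 at 22 °C.

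Whether the Cre label acted differently at 30 and 22 °C was tested as an interaction, which called 0.44% of all genes, 0.175% upwards and 0.266% downwards. None of the 36 members was called by limma, and at an unadjusted p below 0.05 there were 5, all negative. In 29 of 36 members the difference with the Cre label was smaller or more negative at 30 °C, with a median interaction of −0.23 over the members and −0.0088 over all genes. Angpt1 gave −0.84 ± 0.21 (SE, limma adjusted p = 0.100), which became −0.96 ± 0.21 (SE, limma adjusted p = 0.0366) without control library 1 and Cre-labelled library 2 at 22 °C, the sparsest libraries. Notch4 gave −0.73 (limma adjusted p = 0.333), Dll4 −0.80 (limma adjusted p = 0.379) and Aplnr −0.94 (limma adjusted p = 0.513). Calls present at one temperature and absent at the other are thus not shown to differ between temperatures.

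A list of 33 other endothelial genes, 32 of them measured, gave calls in the same directions as the markers in most cases. With the Cre label 6 were higher and 1 lower at 30 °C, beside 5.65% and 6.85% of all genes. At 22 °C 6 were higher and 1 lower, beside 5.51% and 4.69% of all genes. With temperature 14 were higher and 0 lower in controls (1 lower at an unadjusted p below 0.05), beside 22.9% and 22.7% of all genes. In Cre-labelled libraries 8 were higher and 0 lower (0 lower at an unadjusted p below 0.05), beside 15% and 17.7% of all genes. The 1 lower with the Cre label was Sele, E-selectin, the leukocyte-catching protein of activated endothelium. Sele averaged 19.4 ± 10.7 in Cre-labelled libraries against 89.5 ± 22.9 in controls at 30 °C (SD, n = 4 each; limma adjusted p = 0.00142). At 22 °C both of its means were below the minimum of 10, with 1.87 ± 0.557 in Cre-labelled libraries and 6.67 ± 3.11 in controls. Sele was thus tested only through its 30 °C values, which favours a higher value at 30 °C. No weight is put on its call at 22 °C, nor on its part in the temperature counts above. Fabp5, a fatty acid binding protein of capillaries and other cells, was higher with the Cre label at 30 °C (log2 difference 0.91, limma adjusted p = 0.0167), as was S1pr1, the sphingosine phosphate receptor (0.49, limma adjusted p = 0.0173). Cd34 was higher at 22 °C (0.78, limma adjusted p = 0.00956), though progenitor cells also make it.

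Of 21 measured angiogenic ligands and regulators that are not members, 3 were higher and 5 lower with the Cre label at 30 °C. Over all genes 5.65% were called higher there and 6.85% lower. At 22 °C 2 were higher and 2 lower, beside 5.51% and 4.69% of all genes. The same shares stand beside the counts of the lists that follow. Egln1, an oxygen-sensing prolyl hydroxylase that marks HIF proteins for destruction, was lower at both temperatures (log2 difference −0.95, limma adjusted p = 7.83e-06 at 30 °C and −0.66, limma adjusted p = 3.58e-04 at 22 °C). Egln3, a hydroxylase of the same family that HIF itself induces, was higher at both (1.49, limma adjusted p = 2.92e-04 at 30 °C and 1.45, limma adjusted p = 4.58e-04 at 22 °C). Pdgfd, a platelet-derived growth factor that acts on mural cells, was lower at 30 °C (−1.08, limma adjusted p = 8.06e-04). Of 8 measured hypoxia response genes, 1 was higher and 0 lower with the Cre label at 30 °C (1 lower at an unadjusted p below 0.05). At 22 °C 2 were higher and 0 lower (1 lower at an unadjusted p below 0.05). Egln3 and Adm were named on both lists. The 1 higher at 30 °C was again Egln3, which was also 1 of the 2 at 22 °C. Of 10 mural cell markers, Tagln (0.92, limma adjusted p = 0.00224) and Acta2 (0.71, limma adjusted p = 0.00913), contractile proteins of smooth muscle, were higher with the Cre label at 30 °C and none was called at 22 °C, nor at an unadjusted p below 0.05. Of 10 macrophage markers 8 were higher and 0 lower with the Cre label at 30 °C, and 6 were higher and 1 lower at 22 °C.

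BCL6 binding near the members was read from the authors' list of 3022 peaks in Cre-negative fat at 30 °C (mm10), in which each peak is assigned to 1 gene. The labels give 1 BCL6 ChIP sample of such fat, so the peaks have no replicate. Within 10 kb of the start site, 2 of 36 members (5.56%) had a peak, against 7.75% of the 13176 genes. They were Car4 and Notch4. The Car4 peak lay at chr11:84959828-84960008, in intron 1 of 7 and 2164 bases after the start, with the authors' score of 7.51 against a median of 5.18 over the list. The Notch4 peak lay at chr17:34555899-34556079, 8306 bases before the start and outside genes, with a score of 6.08, so it is not in the promoter window printed above. Within 50 kb 5 members (13.9%) had a peak, against 11.9% of all genes. The added members were Mmrn2, with a peak in exon 2 of 7 at chr14:34396078-34396258 (score 9.65), Nrp1, with an intergenic peak at chr8:128337055-128337235, 21928 bases before its start (score 39.7, rank 26 in the list), and Angpt1. Angpt1 had 4 peaks on chromosome 15, of which the nearest lay 34517 bases before its start (score 4.11) and the highest in intron 1 of 8 (score 12.2). Cldn5, Egfl7, Vegfa, Esam and Pecam1, the other members called for the Cre label at 30 °C, had no peak assigned to them.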

How the data were processed

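RNA of interscapular brown fat was read as 16 stranded polyA libraries of 75 single-read cycles, per the labels' protocols. The authors deposited 1 signal value per gene and library, normalised counts made with kallisto and DESeq2 on mm10, per the submitters' processing notes; the sources used here give neither annotation version nor filters. Values were not whole, nor whole multiples of a common step, so raw depth is unknown, and a change in total RNA would not be seen. The 16 columns were matched by name, 0 were left unused, 26 symbols turned into dates were restored and 14 entries had no symbol. No 2 libraries were identical.

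Values were tested as log2(value + 1), a scale on which folds of low genes are understated, with limma 3.58.1 in R 4.3.3: 1 mean per group over all 16 libraries, empirical Bayes with a trend (prior df 4.83, residual df 12), Benjamini-Hochberg adjustment over 13176 genes with a mean of at least 10, and 5 contrasts. In data simulated for 13176 genes with 200 changed, between 50% and 79% of 2-fold changes were recovered, depending on the contrast. Between 4.17% and 6.38% of the calls there were false. The simulated noise was drawn independently for each gene. Changes smaller than 2-fold, such as most differences given here, were not simulated, so their recovery is not known. Level differences between genes were not read, since values are not per length. The members and lists were chosen with earlier results of these data known. Values per library are printed for members past the threshold, up to 12 per comparison, and for the growth factors, and from every other list at most 3 genes per comparison in order of adjusted p. Gene sequences and positions come from RefSeq GRCm38.p6.

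The authors' BCL6 peaks were aligned with Bowtie2 and annotated with HOMER on mm10, per the submitters' processing notes and the file headers. The score deposited with a peak is the authors' own and was used only to describe and rank peaks; how peaks were called is not given in those sources. The other ChIP and input samples (H3K27ac, ERRa and BCL6 in Cre-labelled mice) were not analysed here.

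Alternatives were other pseudocounts, filters, normalisation and variance settings, a replicate block, a muscle covariate and leaving out libraries.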

Additional observations from a re-analysis of the deposited data

Results flagged for a closer look

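In 6 of 144 groups of 4 libraries checked (36 members in 4 groups), 1 library stood far from the other 3, by a gap rule that chance meets in about 1 of 20 groups. Car4 had 1399.0 normalised counts in Cre-labelled library 1 at 30 °C, against 1052 to 1098 in the other 3. Tie1 had 4105 in Cre-labelled library 4 at 30 °C, against 3869 to 3885. Dll4 had 913 in Cre-labelled library 3 at 30 °C, against 709 to 731. Sox7 had 697 in Cre-labelled library 4 at 30 °C, against 615 to 622. Sox18 had 595 in Cre-labelled library 2 at 22 °C, against 431 to 454. Vegfb had 2890.4 in the same library, against 2124 to 2188. All 6 were the highest of their group, and all 6 were Cre-labelled. For Car4 the high library adds to the called difference at 30 °C, which was lost without it; for Vegfb it adds to the called difference with temperature in Cre-labelled libraries, which was lost without it.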

How the results depend on the processing

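The limits are raw depth, which is unknown, 4 libraries per group, and a muscle content that differed between libraries. Of 45 gene calls, 26 kept their direction and their side of the threshold in all 27 alternatives and 0 reversed in any; the 26 include all 18 calls for temperature in controls and Cldn5 for the Cre label at 30 °C. Counts of called members moved as follows; the cause was not tested. Higher with the Cre label at 30 °C (5) became 8 with those 8 libraries fitted alone, 3 with a replicate block and 8 without the 2 libraries with the fewest genes, and ran between 1 and 7 with 1 library left out. It was 1 without Cre-labelled library 1 or control library 1, and 2 without Cre-labelled library 3 or 4 or control library 2 or 4, all at 30 °C. Lower with the Cre label at 30 °C (2) became 1 with no filter, 1 with no trend and 1 with the muscle covariate, and ran between 0 and 3 with 1 library left out. It was 0 without Cre-labelled library 1 or 3 or control library 1, 2 or 4, and 1 without Cre-labelled library 2 or 4 at 30 °C, Cre-labelled library 1 or 3 at 22 °C or control library 3 at 22 °C. Higher with the Cre label at 22 °C (11) became 6 with no filter, 7 with no trend, 2 with those libraries fitted alone and 19 without the 2 sparsest, and ran between 3 and 18 with 1 library left out. It was 7 without Cre-labelled library 1 at 30 °C, 4 without Cre-labelled library 1, 18 without 2, 3 without 3 and 6 without 4 at 22 °C, and 4 without control library 3 and 7 without 4 at 22 °C. Higher at 30 °C ran between 18 and 19 in controls and between 7 and 12 in Cre-labelled libraries with 1 library left out. Lower at 30 °C in Cre-labelled libraries (1) became 0 under quantile normalisation and without Cre-labelled library 1 or 4 at 30 °C or library 2 at 22 °C. The interaction (0) gave 1 without the 2 sparsest libraries. Members with a BCL6 peak (2) became 0 within 2 kb and 5 within 50 kb. The gap between markers and factors in controls at 22 °C (−0.04) became −0.17 under quantile normalisation. Library numbers did not pair across groups: deviations of same-numbered libraries correlated between −0.48 and 0.24, and 4 of 16 libraries were closest to their own number. With the replicate block, 40 of the 45 gene calls were kept.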

Other observations

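Vegfc and Flt4 are the ligand and receptor of lymphatic growth, and few lymphatic markers could be measured beside them. Of 5 lymphatic markers, Lyve1 and Pdpn passed the minimum mean of 10. Pdpn averaged 25.6 ± 13.6 normalised counts at 30 °C and 7.99 ± 1.70 at 22 °C in controls, and Lyve1 averaged 17.0 ± 10.5 at 30 °C and 4.86 ± 3.46 at 22 °C (SD, n = 4 each). Both lay below that minimum in the 22 °C controls and passed it through the other groups, which favours a higher value at 30 °C, so these values are a description only.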
